A study of Homo sapiens with 9 samples.

Results

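The 10 genes described here set the timing of the G1 phase of the cell cycle: the cyclin-dependent kinase inhibitors CDKN1A, CDKN1B, CDKN2C and CDKN2D, the D-type cyclins CCND1 and CCND3, the E-type cyclins CCNE1 and CCNE2, and the kinases CDK4 and CDK6. They were taken by gene symbol from a table of 59609 genes, and all 10 of the 10 symbols were found and passed the low-count filter that left 16964 genes for testing. Bulk RNA sequencing had been done on SUIT2 cells, a long-established human pancreatic cancer line. There were 3 groups of 3 libraries: control, human interferon beta (IFNβ, a type I interferon) at 100 U/mL for 6 h, and the same dose for 24 h. All groups were the same line, seeded in 6-well plates 24 h before the medium was replaced with fresh medium. A single treatment protocol is given for all samples, with no duration or vehicle for the controls, so time in culture and interferon cannot be told apart at either time. They do not say whether replicates were separate cultures, so p-values reflect the spread among these 9 libraries alone, which may be technical. As bulk RNA, the values do not separate a change per cell from a change in the share of cells in each cycle phase.

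In G1, cyclin D bound to CDK4 or CDK6 begins to phosphorylate the retinoblastoma protein, which holds back the E2F transcription factors, and cyclin E bound to CDK2 completes that step before S phase. The INK4 inhibitors, here p18 (CDKN2C) and p19 (CDKN2D), bind CDK4 and CDK6 alone, whereas the CIP/KIP inhibitors p21 (CDKN1A) and p27 (CDKN1B) act on cyclin E complexes and also bind cyclin D complexes. The genes of both E-type cyclins are themselves targets of E2F, and type I interferon is known to slow the growth of many epithelial tumour lines.

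At 6 h CDKN1A and both D-type cyclins were above control, though the rise of CCND1 was small (0.19 on the log2 scale) and its call depended on how libraries were scaled. At 24 h CDKN1A stood at 0.44 of its control level and CCND1 at 0.56, while CCNE2 stood at 2.21 times and CCNE1 at 1.56 times theirs. The kinases, p27 and the INK4 inhibitors moved by less than 1.5-fold in every comparison.

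CDKN1A and CCNE1 are shown with part of their promoter, because the changes of one ran opposite to those of the other at both times. Both stretches come from RefSeq (GRCh38.p14), run 5′ to 3′ on the strand of the gene, and hold no base of any exon annotated in GENCODE 29. Capitals mark GGGCGG or its reverse complement CCGCCC, the GC box bound by SP1-family factors. The CDKN1A stretch is chr6:36678560-36678657 on the plus strand and ends 57 bases before the RefSeq start of transcription. The CCNE1 stretch is chr19:29811741-29811897 on the plus strand and ends 94 bases before it.
CDKN1A: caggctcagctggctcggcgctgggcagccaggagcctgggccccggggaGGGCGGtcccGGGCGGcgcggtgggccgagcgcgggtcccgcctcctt
CCNE1: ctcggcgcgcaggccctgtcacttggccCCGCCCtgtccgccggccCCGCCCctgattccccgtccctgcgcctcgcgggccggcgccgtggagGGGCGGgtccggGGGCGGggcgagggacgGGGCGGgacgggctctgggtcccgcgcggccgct
The CDKN1A stretch (98 bases) held 2 GC boxes and the longer CCNE1 stretch (157 bases) 5. The full 300-base windows they were cut from held 4 and 7. RefSeq windows of 300 bases (250 before and 50 after a start) were used for 8 of the 10 genes, 13 windows in all. No window was at hand for CCND1. CCNE2 was left out of the search, so the motif results that follow do not cover it. A GC box on either strand was found in 10 of the 13 windows, against 45.0% of all 35116 promoter windows. It was found at least once for 8 of the 8 genes, but some genes have several windows, so that count has no such background. The E-box CACGTG, bound by MYC-type factors, was found in 4 windows of CDKN2C, CDK4 and CDK6, with 3 copies in the CDK4 window, against 7.26% of all windows. None of the 13 windows held an interferon-stimulated response element, searched as GAAA repeated after 2 bases of any kind (3.57% of all windows), the STAT letters TTCNNNGAA (7.66%) or the E2F letters TTTCCCGC, TTTGGCGC, TTTCGCGC and TTTGCCGC (3.31% for any of these), on either strand. With shares this low, finding none in 13 windows is unremarkable and does not set these genes apart. Bases outside the windows and variants of these letters were not searched.

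Depth, as the sum of estimated counts, ranged from 15101734 to 19632741 among controls, from 16799278 to 37420457 among 6 h libraries and from 25270387 to 40384407 among 24 h libraries. Epithelial markers (6 of 6 measured: KRT7, KRT8, KRT18, KRT19, EPCAM and CDH1) summed to 4834 to 4897 CPM in the controls, against 5455 to 5762 at 6 h and 5352 to 5477 at 24 h, where CPM is the count scaled to a library size of 1e6 with TMM factors. Leukocyte markers summed to at most 0.926 CPM in any library, with PTPRC, CD3E and MS4A1 at 0 counts in all 9, fibroblast markers to at most 0.896, acinar markers to at most 0.63 and endothelial markers to at most 2.4, nearly all of it PECAM1.

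Compared per kilobase of annotated exon, the control levels fell into 3 tiers. CCND1 (108 ± 3.24 CPM per kb, mean ± SD, n = 3 here and below) and CDK4 (92.8 ± 1.70) led. CDKN2C (26.0 ± 0.744), CDKN1A (23.7 ± 0.474), CCND3 (21.3 ± 0.221) and CDKN1B (20.71 ± 1.08) followed, and CDKN2D (3.57 ± 0.506), CCNE1 (3.40 ± 0.242), CCNE2 (2.89 ± 0.347) and CDK6 (2.35 ± 0.117) were lowest. Neighbours in this order did not overlap except CCND3 with CDKN1B and CDKN2D with CCNE1. By 24 h CDK4 (79.1 ± 2.88) stood above CCND1 (60.7 ± 0.562), CDKN1A (10.4 ± 0.447) had fallen below CDKN1B (19.2 ± 1.10), and both E-type cyclins (6.42 ± 0.070 for CCNE2 and 5.30 ± 0.243 for CCNE1) stood above CDKN2D (2.59 ± 0.241). The length is the union of all annotated exons, which is long for CDK6 (12260 bases) and so lowers its value.

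**Figure D1:**
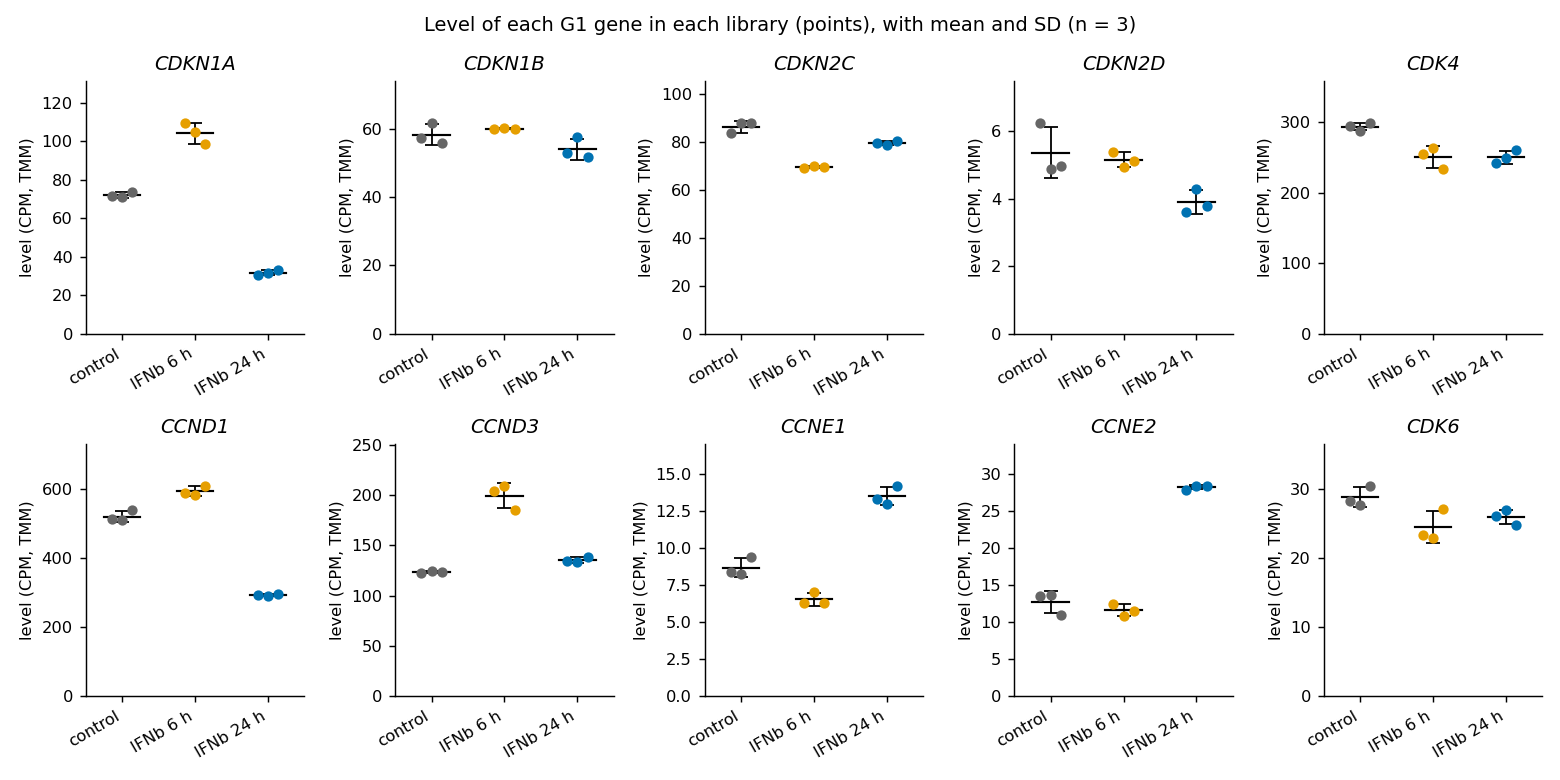
Level of each of the 10 genes (y axis, CPM with TMM factors, from 0) in each library (points) of the control, 6 h and 24 h groups, with horizontal lines for means and bars for SD (n = 3). CDKN1A is highest at 6 h and lowest at 24 h (104 and 31.8 CPM on average), and CCNE1 is lowest at 6 h and highest at 24 h (6.53 and 13.5 CPM).

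By edgeR's quasi-likelihood test 7 of the 10 genes passed at 6 h against control, 3 higher and 4 lower, where passing means a Benjamini-Hochberg adjusted p under 0.05 over all genes tested. The background was high: 32.9% of all tested genes passed at 6 h, 17.5% higher and 15.4% lower. At 24 h against control 8 of the 10 passed, 3 higher and 5 lower, against 50% of all genes, 24.7% higher and 25.3% lower. Between 24 h and 6 h 8 passed, 3 higher and 5 lower, against 57.2% of all genes, 26.6% higher and 30.6% lower. The median absolute log2 fold change of the 10 was 0.222, 0.35 and 0.481 in these comparisons, against 0.161, 0.234 and 0.265 over all tested genes. The libraries of the groups did not overlap for 7, 9 and 8 of the 10, against 42.1%, 60% and 62.2% of all genes. The 6 h and 24 h comparisons share their control libraries, so each one's values are given side by side. In the authors' deposited normalized table the median log2 fold change of all genes was above 0, at 0.134 at 6 h and 0.371 at 24 h (pseudocount 1). With those values 0 of the 10 passed as lower at 6 h, and at 24 h 2 passed as lower and 3 as higher. Relative to the median of all genes, the 10 kept their signs in all 3 comparisons in that table and with scaling by library size. Both differ from the main scaling by 1 factor per library, so these signs were largely fixed in advance and are no separate support.

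**Figure D2:**
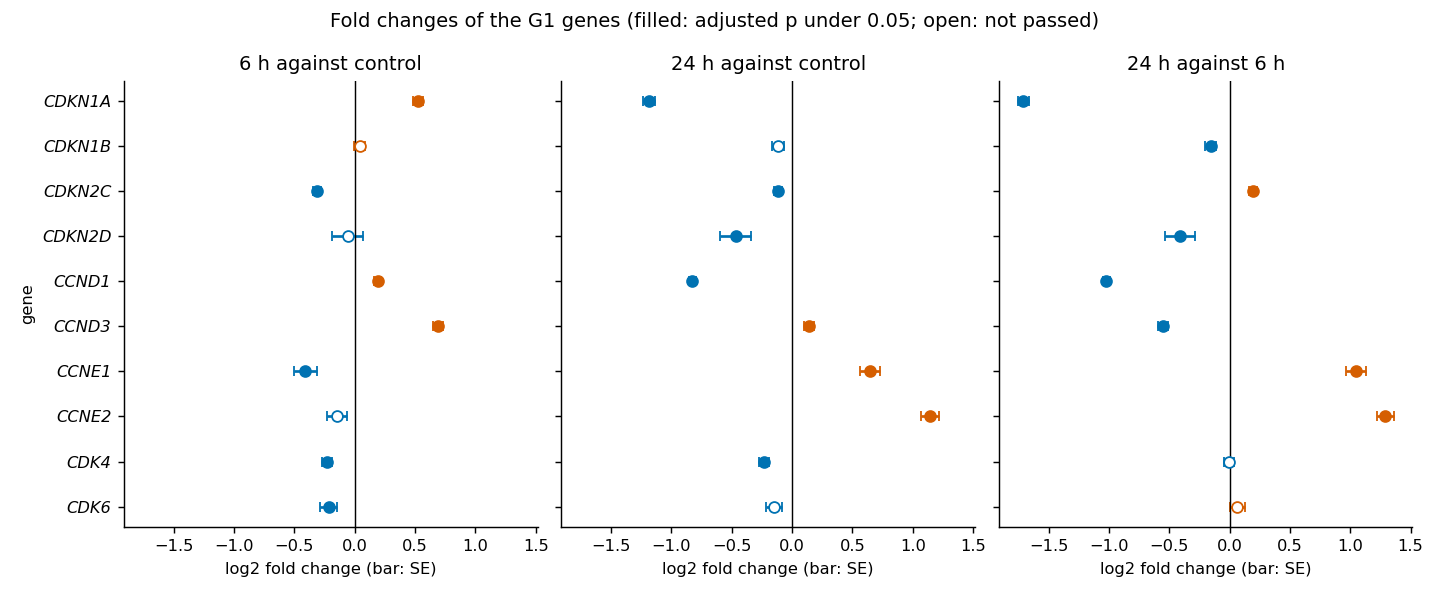
Log2 fold change (x axis, bars are SE) of each gene (y axis) in the 3 comparisons, with orange above 0, blue below 0, filled circles for an adjusted p under 0.05 and open circles otherwise. CDKN1A lies at 0.52 at 6 h and at -1.19 at 24 h against control, and CCNE2 at -0.15 and 1.14.

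CDKN1A encodes p21, the CIP/KIP inhibitor best known as a target of p53 (hg38, chromosome 6, 36676460 to 36687338, plus strand). Its level was 71.7, 71.1 and 73.9 CPM in the controls, 109.5, 104.8 and 98.4 at 6 h, and 30.4, 31.7 and 33.1 at 24 h. No library of a group overlapped another group, with every 6 h library above and every 24 h library below every control. The log2 fold change against control was 0.52 (SE 0.045, adjusted p = 1.68e-07) at 6 h and -1.19 (SE 0.048, adjusted p = 1.57e-11) at 24 h. At 24 h only 194 of the 16964 tested genes had a lower fold change. Between the times it fell by 1.71 on the log2 scale (SE 0.045, adjusted p = 6.61e-14), a 3.27-fold lower level. Both directions and calls against control held under every alternative tried, with 24 h values from -0.73 in the deposited normalized table to -1.22.

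CDKN1B encodes p27, the other CIP/KIP inhibitor, whose abundance is mainly set by protein turnover (chromosome 12, 12715058 to 12722370, plus strand). It read 57.3, 61.6 and 55.7 CPM in control, 59.9, 60.1 and 59.98 at 6 h and 52.8, 57.5 and 51.7 at 24 h. Control and treated libraries overlapped at both times. The fold change did not pass at 6 h (0.04, SE 0.048, 95% interval -0.055 to 0.135) or at 24 h (-0.12, SE 0.047, adjusted p = 0.053). The 24 h value lay close to the threshold and passed when 24 h library 2 (-0.16, adjusted p = 0.0131), control library 3 (-0.14, adjusted p = 0.0395) or 6 h library 3 (-0.12, adjusted p = 0.0369) was left out, and in a fit of the 2 groups alone (-0.12, adjusted p = 0.0432). The deposited normalized table put it at 0.32, below the median of all genes. Between the times it passed as lower (-0.16, SE 0.045, adjusted p = 0.00836), yet was not called with scaling by library size alone (0.06) or in the deposited normalized table (0.12).

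CDKN2C, the INK4 inhibitor p18 (chromosome 1, 50960745 to 50974635, plus strand), was the more abundant of the INK4 pair. Its libraries read 83.5, 87.8 and 87.7 CPM in control, 68.98, 70.01 and 69.4 at 6 h and 79.7, 78.6 and 80.1 at 24 h. All 6 h libraries lay below all 24 h libraries, and these below all controls. The log2 fold change was -0.31 (SE 0.034, adjusted p = 3.13e-06) at 6 h, when the level fell by 19.5%, and -0.12 (SE 0.033, adjusted p = 0.00712) at 24 h. The rise between the times was 0.19 (SE 0.033, adjusted p = 0.000112). The 24 h call ended with scaling by library size (-0.04, adjusted p = 0.324) and without the low-count filter (-0.10, 0.0632), and in the deposited normalized table the 6 h value was -0.15 and the 24 h value 0.32, neither called.

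CDKN2D, the INK4 inhibitor p19 (chromosome 19, 10566460 to 10569060, minus strand), had the fewest counts of the set, 76 to 176 per library. It read 6.23, 4.88 and 4.96 CPM in control, 5.39, 4.94 and 5.11 at 6 h and 3.60, 4.30 and 3.77 at 24 h. Control library 1 stood above the rest, and the 24 h libraries lay below all others. At 6 h it did not pass (-0.06, SE 0.13, 95% interval -0.315 to 0.196), and the value turned to 0.06 without control library 1. At 24 h it was lower (-0.47, SE 0.13, adjusted p = 0.00696), a call that ended in the deposited normalized table (-0.02, adjusted p = 0.942). Between the times it fell by 0.41 (SE 0.12, adjusted p = 0.0112), which was not called with scaling by library size (-0.19, adjusted p = 0.197). Of the other INK4 genes, CDKN2A (p16 and ARF) was detected at 13.2 ± 0.329 CPM in control and 10.6 ± 0.348 at 24 h (-0.32, SE 0.07, adjusted p = 0.00134), although the deposited normalized table gave 0.11. CDKN2B (p15) had 0 counts in all 9 libraries.

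CCND1, cyclin D1, the main link between growth factor signalling and CDK4 (chromosome 11, 69641156 to 69654475, plus strand), was the most abundant of the 10 in control. Its libraries read 514.5, 509.7 and 538.9 CPM in control, 589.9, 584.8 and 610 at 6 h and 293, 290.8 and 296.2 at 24 h. The 6 h libraries lay above and the 24 h libraries far below every control, with an SD of 2.71 CPM at 24 h. The rise at 6 h was small (0.19, SE 0.028, adjusted p = 7.56e-05) and was not called with scaling by library size (0.05, 0.162). The deposited normalized table gave 0.36, also not called (adjusted p = 0.18). The fall at 24 h was -0.83 (SE 0.029, adjusted p = 2.42e-12), a 1.78-fold lower level, and 513 tested genes had a lower fold change. Between the times it fell by 1.02 (SE 0.029, adjusted p = 1.39e-13), to 0.49 of the 6 h level. The 24 h fall was -0.39 in the deposited normalized table, called with a pseudocount of 1 (adjusted p = 0.0384) and not with 0.1 (0.0894). LTO1, on the other strand, shares 497 exonic bases with CCND1 but held 4.81% of its counts, and its own fold change at 24 h was -0.54.

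CCND3, cyclin D3 (chromosome 6, 41934934 to 42050358, minus strand), had the largest change of the 10 genes at 6 h. It read 122, 125 and 123 CPM in control, 204, 209 and 185 at 6 h and 134, 133.5 and 138.5 at 24 h. The 6 h libraries lay well above the rest, and the 24 h libraries remained just above the controls. The log2 fold change was 0.69 (SE 0.042, adjusted p = 2.76e-09) at 6 h, a 1.61-fold higher level, and 0.14 (SE 0.042, adjusted p = 0.0132) at 24 h. Between the times it fell by 0.55 (SE 0.04, adjusted p = 1.19e-08), a fall of 0.28 that was not called in the deposited normalized table (adjusted p = 0.182). CCND2, the remaining D-type cyclin, had 3 counts over all 9 libraries and was not tested.

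CCNE1, cyclin E1 (chromosome 19, 29811991 to 29824313, plus strand), moved down and then up. It read 8.39, 8.26 and 9.39 CPM in control, 6.29, 7.02 and 6.27 at 6 h and 13.3, 13 and 14.2 at 24 h, from counts of 97 to 573 per library. The 3 groups did not overlap. The log2 fold change was -0.41 (SE 0.094, adjusted p = 0.00341) at 6 h and 0.64 (SE 0.083, adjusted p = 1.05e-05) at 24 h. The rise between the times was 1.05 (SE 0.083, adjusted p = 3.25e-08). The 6 h fall was the less firm value, at -0.21 and not called in the deposited normalized table (adjusted p = 0.502). The call at 24 h held under every alternative.

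CCNE2, cyclin E2, had the largest rise of the 10 at 24 h (chromosome 8, 94879770 to 94896679, minus strand). Its libraries read 13.55, 13.6 and 10.95 CPM in control, 12.5, 10.9 and 11.5 at 6 h and 27.9, 28.4 and 28.4 at 24 h. The 24 h libraries lay above all others, and control and 6 h libraries overlapped. At 6 h it did not pass (-0.15, SE 0.084, adjusted p = 0.202), though without control library 3, the lowest control, it was called lower (-0.23, adjusted p = 0.0368), as with scaling by library size (-0.29, adjusted p = 0.0104). At 24 h it was 2.21-fold higher (1.14, SE 0.072, adjusted p = 3.16e-09), and 702 tested genes had a higher fold change. Between the times the rise was 1.29 (SE 0.069, adjusted p = 3.36e-10). INTS8 on the other strand shares 1629 exonic bases with CCNE2 and held 329% of its counts. Without a stated strand setting their reads cannot be told apart there. INTS8 itself rose by 0.56 (SE 0.046) at 24 h, less than CCNE2.

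CDK4 (chromosome 12, 57747727 to 57756014, minus strand) and CDK6 (chromosome 7, 92604921 to 92836574, minus strand) are the kinases that the D-type cyclins activate. CDK4 read 295, 288 and 299 CPM in control, 256, 264 and 234 at 6 h and 242, 249 and 260 at 24 h. All treated libraries lay below all controls, and the treated groups overlapped. Its fold change was -0.23 (SE 0.041, adjusted p = 0.000493) at 6 h and -0.23 (SE 0.041, adjusted p = 0.00023) at 24 h, and in the deposited normalized table the 6 h value was -0.06 and the 24 h value turned to 0.21, neither called. The difference between the times was not called (0.00, 95% interval -0.083 to 0.077), but with scaling by library size it was 0.22 and called (adjusted p = 0.000362). TSPAN31 on the other strand shares 1369 exonic bases with CDK4 and held 21.5% of its counts, with fold changes of -0.03 at 6 h and 0.05 at 24 h, neither called. MARCHF9, which overlaps CDK4 on the other strand by the coordinates in the file, held 12.9% of its counts and was lower at 6 h (-0.60, SE 0.081) and higher at 24 h (0.66, SE 0.07).

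CDK6 read 28.3, 27.7 and 30.4 CPM in control, 23.3, 23.0 and 27.1 at 6 h and 26.0, 26.9 and 24.8 at 24 h. All treated libraries lay below all controls, the nearest being 6 h library 3, and the treated groups overlapped. The fold change was called at 6 h (-0.22, SE 0.068, adjusted p = 0.0241) but not without 6 h library 1 (-0.18, 0.083), 6 h library 2 (-0.16, 0.0986) or control library 3 (-0.17, 0.117). At 24 h it did not pass (-0.15, SE 0.065, adjusted p = 0.065), and without 6 h library 3 it was called lower at nearly the same value (-0.15, 0.0167), as it was without 6 h library 2 (-0.15, 0.0482) and in a fit of the 2 groups alone (-0.15, 0.0201). Between the times it stood at 0.06 (SE 0.063) and was called without 6 h library 3 (0.16, 0.0282) and with scaling by library size (0.28, 0.00112). In the deposited normalized table CDK6 read -0.07 at 6 h and turned to 0.28 at 24 h, neither called.

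Ratios of genes of the same role were taken within each library, so that scaling between libraries does not enter. The CDKN1A to CDKN1B ratio of counts was 1.25, 1.15 and 1.33 in control, 1.83, 1.74 and 1.64 at 6 h and 0.576, 0.552 and 0.641 at 24 h. The groups did not overlap, and the mean difference in log2 ratio was 0.48 at 6 h and -1.08 at 24 h against control. The CCND1 to CCND3 ratio was 4.21, 4.09 and 4.38 in control, 2.90, 2.80 and 3.30 at 6 h and 2.18, 2.18 and 2.14 at 24 h. It was lower than control by 0.50 (log2) at 6 h and by 0.96 at 24 h, so that cyclin D3 transcripts made up a larger part of the D-type total at both times. The CCNE2 to CCNE1 ratio was 1.61, 1.65 and 1.17 in control and 2.09, 2.19 and 2.00 at 24 h, with 6 h libraries between 1.55 and 1.98. The CDKN2C to CDKN2D ratio ranged from 13.4 to 18 among controls, from 12.8 to 14.2 among 6 h libraries and from 18.3 to 22.1 among 24 h libraries. The CDK6 to CDK4 ratio overlapped in all 3 comparisons (-0.01 at 6 h and 0.08 at 24 h, log2). Each of the 10 differences without overlap reached the two-sided exact permutation p = 0.1, which is the smallest that 3 against 3 libraries allow, and the adjusted value over the 15 tests was 0.15. Tests of this design therefore cannot pass, and the ratios are given for their size and spread.

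**Figure D3:**
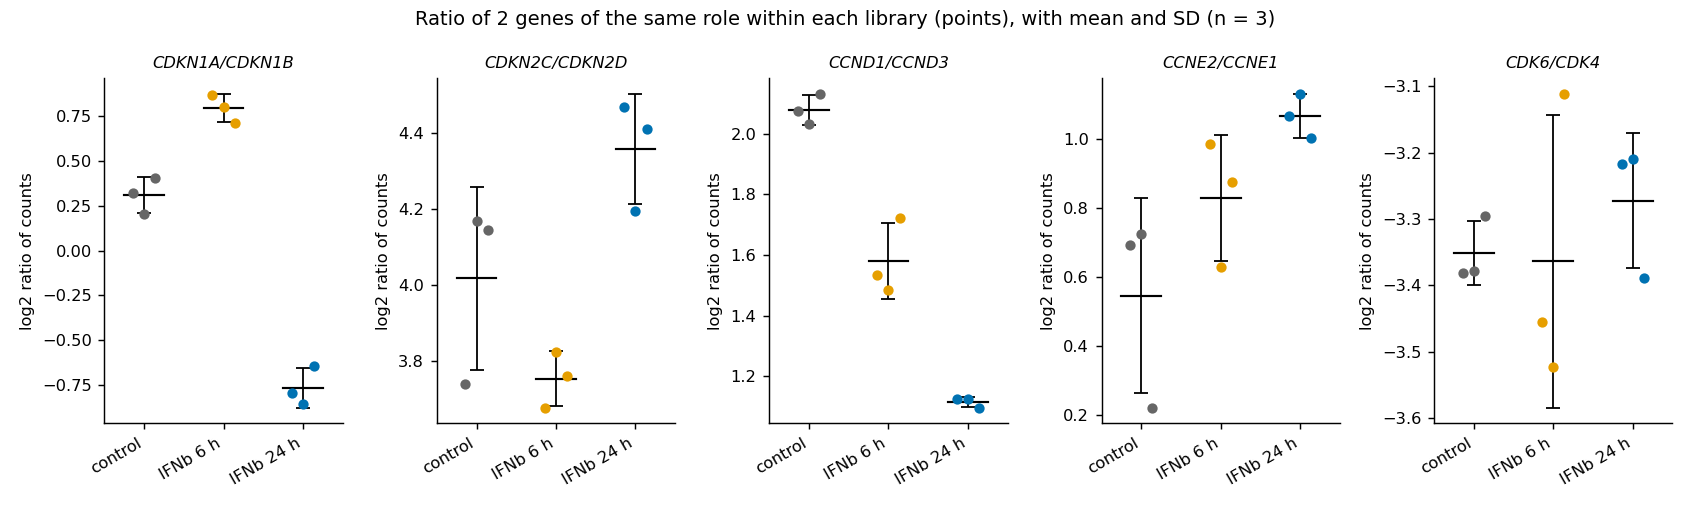
Log2 ratio of the counts of 2 genes of the same role (y axis, a separate scale in each panel) in each library (points), with mean lines and SD bars (n = 3). The CDKN1A to CDKN1B ratio averages 0.31 in control, 0.80 at 6 h and -0.77 at 24 h, and the CCND1 to CCND3 ratio 2.08, 1.58 and 1.12.

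Other genes of the pathway were followed in 7 lists of 105 genes, to be read against the 32.9% of all tested genes called at 6 h and 50% at 24 h. The genes E2F drives in S phase showed the most uniform change at 24 h: 13 of 15 passed as higher, 2 as lower and 0 in neither direction, with a median log2 fold change of 0.55 against 0.00 over all tested genes. The replicative helicase subunits MCM2 (0.71, SE 0.031), MCM5 (0.72, SE 0.032), MCM3 (0.67, SE 0.031) and MCM4 (0.63, SE 0.028) were among the 13, and 13 were also higher with scaling by library size and in the deposited normalized table. The 2 lower genes, named after their values were seen, were CCNA2, cyclin A2 (-0.38, SE 0.031), and TYMS, thymidylate synthase (-0.23, SE 0.028). Neither of these passed as lower in the deposited normalized table. At 6 h 3 of the 15 passed as higher, 1 as lower and 11 in neither direction, with a median of 0.02. This count was 1 higher and 10 lower with scaling by library size, and 0 and 0 in the deposited normalized table.

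Among 18 genes for pocket proteins, E2F factors and the DREAM complex, a repressor of cell cycle genes in resting cells, 8 passed as higher, 2 as lower and 8 in neither direction at 24 h (median 0.12). At 6 h 1 passed as higher, 7 as lower and 10 in neither direction (median -0.04). For the same genes the deposited normalized table gave 0 higher and 1 lower at 6 h and 15 higher and 0 lower at 24 h, and scaling by library size 0 higher and 11 lower at 6 h. The activating factors E2F1 and E2F2 were lower at 6 h (-0.20, SE 0.044, and -0.82, SE 0.097) and higher at 24 h (0.43, SE 0.042, and 0.99, SE 0.079). E2F8, an atypical repressor that E2F1 itself induces, read -0.35 (SE 0.058) and 0.51 (SE 0.052), and the histone-binding subunit RBBP4 -0.11 (SE 0.038) and 0.41 (SE 0.036). The 6 h call of RBBP4 was lost in 10 of 18 alternatives, and the value turned to 0.05 in the deposited normalized table. Those of E2F1 and E2F8 were each lost in 2 of 18, with values reaching -0.03 and -0.17.

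Of 7 tested genes for other cyclins, kinases and inhibitors of G1, 1 passed as higher, 0 as lower and 6 in neither direction at 6 h (median 0.06), and at 24 h 2 passed as higher, 4 as lower and 1 in neither direction (median -0.15). The deposited normalized table gave 3 higher and 0 lower at 24 h, and with scaling by library size 0 were higher and 2 lower at 6 h. CDK2, the partner of cyclin E, was higher by 0.13 (SE 0.03) at 6 h and 0.18 (SE 0.029) at 24 h, its 6 h value turning to -0.01 with scaling by library size. CDC25A, the phosphatase that activates CDK2, was higher at 24 h (0.22, SE 0.038), and CCNH, a subunit of the CDK-activating kinase, lower (-0.31, SE 0.045), though it read 0.13 in the deposited normalized table. Of 15 genes for turnover of G1 regulators, 6 passed as higher, 1 as lower and 8 in neither direction at 6 h (median 0.05), and at 24 h 6 passed as higher, 5 as lower and 4 in neither direction (median 0.09). The deposited normalized table gave 3 higher and 0 lower at 6 h and 9 higher and 0 lower at 24 h, and library size scaling 3 higher and 4 lower at 6 h. AMBRA1, the substrate receptor that marks D-type cyclins for degradation, was higher at 6 h (0.80, SE 0.049) and at 24 h (0.49, SE 0.048). CUL4B, a cullin scaffold, read 0.95 (SE 0.037) and 0.10 (SE 0.038), and DTL, the receptor through which p21 is degraded in S phase, was higher at 24 h (0.80, SE 0.058). The 24 h call of CUL4B was lost in 6 of 18 alternatives. CKS1B, a cofactor in the turnover of p27, rose by 0.37 (SE 0.034) at 6 h and was lower at 24 h (-0.26, SE 0.034), the latter turning to 0.18 in the deposited normalized table.

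Of 16 genes that report growth factor and MAPK signalling upstream of cyclin D, 3 passed as higher, 3 as lower and 10 in neither direction at 6 h (median -0.04). At 24 h 4 passed as higher, 9 as lower and 3 in neither direction, with a median of -0.31. In the deposited normalized table that split reversed, to 7 higher and 4 lower with a median of 0.12, under the median of all genes there. With scaling by library size 2 were higher and 10 lower at 6 h. FOSL1, an AP-1 subunit, was lower at 24 h (-1.76, SE 0.028), as were the phosphatase gene DUSP4 (-1.18, SE 0.034) and PHLDA1 (-0.93, SE 0.033). MYC was higher at 6 h (0.60, SE 0.028) and lower at 24 h (-0.56, SE 0.029), and DUSP4 was likewise higher at 6 h (0.47, SE 0.033). The 24 h call of MYC was lost in 2 of 18 alternatives, with a value reaching -0.12. The 4 higher at 24 h, named after their values were seen, were EGR1 (1.78, SE 0.092), DUSP6 (0.64, SE 0.042), ETV4 (0.52, SE 0.046) and SPRED2 (0.29, SE 0.037).

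Of 17 p53 pathway genes, beside which CDKN1A is usually counted, 4 passed as higher, 6 as lower and 7 in neither direction at 6 h (median -0.05), and 8 passed as higher, 4 as lower and 5 in neither direction at 24 h (median 0.20). These counts in the deposited normalized table were 3 higher and 1 lower at 6 h and 13 higher and 1 lower at 24 h, and scaling by library size 4 higher and 9 lower at 6 h and 11 higher and 3 lower at 24 h. ZMAT3, an RNA-binding p53 target, was lower at both times (-1.87, SE 0.11, and -0.92, SE 0.096). FAS, the death receptor, read 0.84 (SE 0.051) at 6 h and -0.29 (SE 0.053) at 24 h, a fall that turned to 0.14 in the deposited normalized table. The stress cytokine gene GDF15 was lower at 6 h (-0.54, SE 0.089) and higher at 24 h (1.07, SE 0.075), the reverse order of CDKN1A. XPC, a DNA repair factor, read -0.28 (SE 0.051) and 0.20 (SE 0.047). The 6 h calls of GDF15 and XPC were each lost in 2 of 18 alternatives, and the 24 h call of ZMAT3 in 1. Of 13 tested transcription factors known to act on genes of CDK inhibitors, 7 passed as higher, 3 as lower and 3 in neither direction at 6 h (median 0.17), and 8 passed as higher, 2 as lower and 3 in neither direction at 24 h (median 0.19). The deposited normalized table gave 6 higher and 0 lower at 6 h, and 11 higher and 0 lower at 24 h, and library size scaling 6 higher and 5 lower at 6 h. With scaling by library size the 6 h medians of the lists of other cyclins, turnover and S phase genes turned to -0.08, -0.09 and -0.12. The median of all genes was then -0.145, and relative to it these lists stood at 0.068, 0.059 and 0.022. In the deposited normalized table the 6 h medians of the pocket protein, MAPK and p53 lists turned to 0.11, 0.13 and 0.11, and the 24 h median of the other cyclins to 0.28. The medians of all genes there were 0.134 at 6 h and 0.371 at 24 h. Relative to these, the 4 values were -0.022, -0.007, -0.022 and -0.088. IRF1 was higher by 2.93 (SE 0.047) at 6 h and by 0.73 (SE 0.054) at 24 h, IRF9 by 2.99 (SE 0.065) and 2.40 (SE 0.066), and STAT2 by 3.96 (SE 0.06) and 2.07 (SE 0.063). SMAD4, a mediator of TGF-beta signals to these genes, had 26 counts over all 9 libraries and was not tested.

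**Figure D4:**
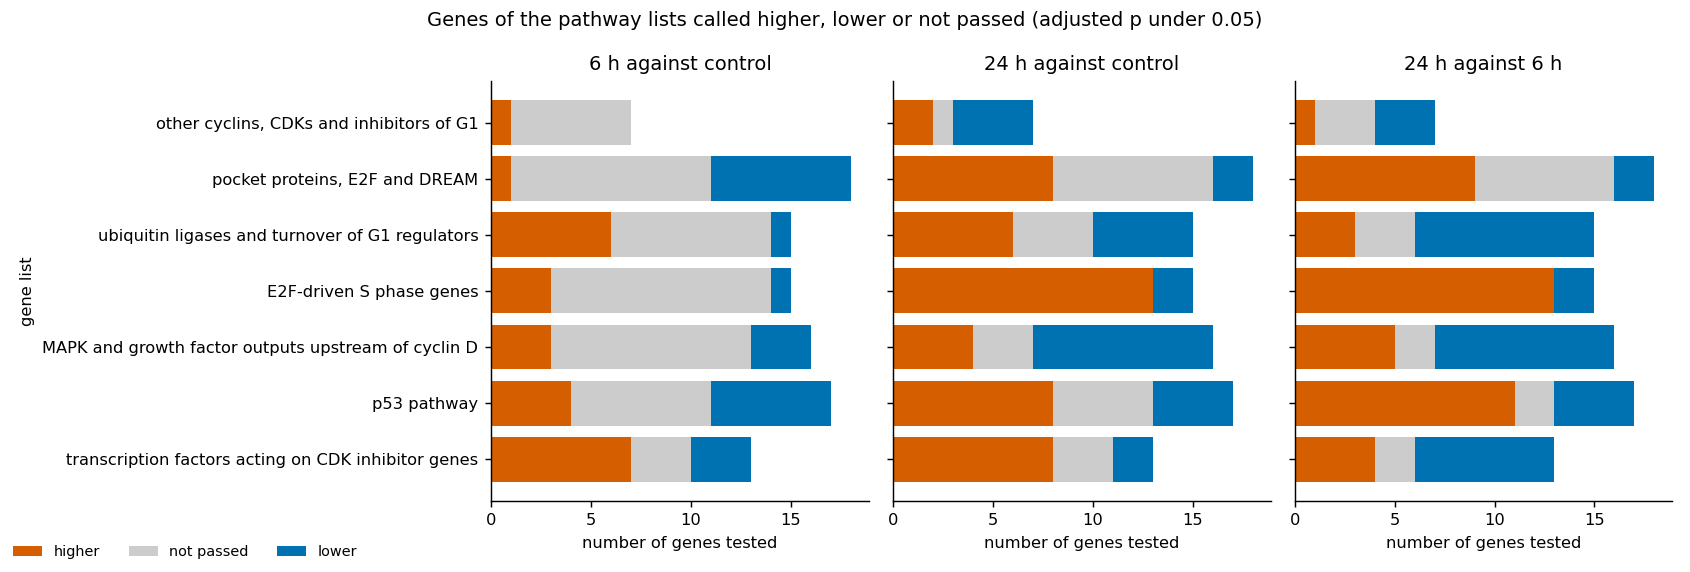
Number of tested genes (x axis) of each of the 7 pathway lists (y axis) that were higher (orange), did not pass (grey) or were lower (blue) in the 3 comparisons, at an adjusted p under 0.05. The bar of genes driven by E2F in S phase changes from 3 higher and 11 not passed at 6 h to 13 higher and 0 not passed at 24 h.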

How the data were processed

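RNA from 9 SUIT2 libraries in 3 groups of 3 was analysed, grouped by sample title. The submitters' processing notes name STAR 2.7.8a, Partek and hg38; settings for counting, strand and annotation release were not given in the sources used here. Estimated counts per gene were deposited by the authors, 15.8% to 21.3% of the values not whole, and were rounded to whole numbers, where whole counts had been foreseen. A second deposited table holds a normalized signal, made by adding 0.0001 to each count and multiplying by 1 factor per library.

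All 3 groups entered 1 edgeR 4.0.16 model (R 4.3.3; TMM; quasi-likelihood test; 6 residual degrees of freedom). Genes were kept by filterByExpr with a minimum of 10 counts and a total of 15. The threshold was 0.05 on the Benjamini-Hochberg adjusted p over 16964 genes. SE was taken as |log2 fold change| over the root of F, and 95% intervals are normal. Lengths came from GENCODE 29. The fit was tested on simulated data. The 10 genes and the lists were chosen with earlier results of these data known. Up to 4 genes per list, those with the smallest adjusted p in any comparison, are named with all 10 members, plus genes marked as chosen after their values were seen. The values of 1 gene that this rule names are not reported here. Alternatives were DESeq2 1.42.0, median-of-ratios scaling, library size only, no filter or a minimum count of 50, fits of 2 groups only, a replicate block, leaving out each library, a threshold of 0.01, and limma 3.58.1 on the deposited signal (log2, pseudocount 1 or 0.1). Between replicate pairs the chi-square per gene (1 degree of freedom) had means of 1.59 to 5.58 and medians of 0.595 to 1.37. No library was merged with another. Python 3.11.15, numpy 2.4.6, pandas 2.3.3, scipy 1.17.1 and matplotlib 3.10.9 were used.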

Additional observations from a re-analysis of the deposited data

Results flagged for a closer look

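For 8 of the 10 G1 genes the level differed between the 2 treated groups, by the test of 24 h against 6 h itself. The log2 difference was -1.71 for CDKN1A, -1.02 for CCND1, -0.55 for CCND3, -0.41 for CDKN2D and -0.16 for CDKN1B, and it was 1.29 for CCNE2, 1.05 for CCNE1 and 0.19 for CDKN2C. The background is 57.2% of all tested genes. CDKN1B passed against control at neither time. Its difference turned to 0.061 with scaling by library size and to 0.117 from the deposited signal (pseudocount 1). In these 2 settings CDKN2D was not called (-0.191 and -0.113), and CCND3 was not called from the deposited signal (-0.281). With TMM scaling CDKN1A and CCND1 lay above control at 6 h and below it at 24 h in every library, and CCNE1 below and then above. The CCND1 rise at 6 h was not called with scaling by library size (0.052) or from the deposited signal (0.357).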

How the results depend on the processing

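With scaling by library size the medians of all genes were -0.145 at 6 h, 0.082 at 24 h and 0.198 between the times, and from the deposited signal with pseudocount 1 they were 0.134, 0.371 and 0.215, against -0.005, 0.005 and -0.019 with TMM. The share of calls that were higher moved from 53.2%, 49.5% and 46.6% to 21.2%, 64.1% and 76.9% with library size and to 88.3%, 96.5% and 83.5% with the deposited signal. Of 540 values of the 10 genes under alternatives 476 kept direction and side of the threshold, 25 lost the call, 12 gained it and 27 changed sign. Of 1350 values of the other named genes 1290 were kept, 49 lost the call and 11 changed sign. Except where stated, the cause of these changes was not tested.

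From the deposited signal, with pseudocounts of 0.1 and 1 in turn, the G1 genes called lower numbered 0 and 0 at 6 h (4 in the edgeR fit), 1 and 2 at 24 h (5) and 2 and 2 at 24 h against 6 h (5). Over all genes, 1234 and 1627 were called higher at 6 h (2968) and 172 and 215 lower (2608), 7160 and 8561 higher at 24 h (4191) and 297 and 310 lower (4284), and 815 and 966 lower at 24 h against 6 h (5184). With library size alone 5 G1 genes were higher and 3 lower at 24 h against 6 h. Over all genes 1669 were then higher and 6192 lower at 6 h, and 8229 were higher and 2475 lower at 24 h against 6 h. A threshold of 0.01, stricter by construction, left 1646 lower genes at 6 h.

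Signs turned from the deposited signal at 6 h for CDKN2D (0.114 and 0.098), CCNE2 (0.039 and 0.036) and RBBP4 (0.052 and 0.052). At 24 h they turned for CDKN1B (0.329 and 0.324), CDKN2C (0.320 and 0.316), CDK4 (0.207 and 0.206), CDK6 (0.285 and 0.276), CCNH (0.128 and 0.125), CDKN2A (0.116 and 0.108), CKS1B (0.183 and 0.181) and FAS (0.148 and 0.144). At 24 h against 6 h they turned for CDKN1B (0.119 and 0.117) and CDK4 (0.269 and 0.268). With library size alone the 6 h value was -0.099 for CDKN1B and -0.013 for CDK2, and the 24 h against 6 h value was 0.061 for CDKN1B and 0.215 for CDK4. For CDK4 that value was also 0.021 with 2 groups per fit, 0.007 with DESeq2, 0.007 with median-of-ratios scaling and 0.015 with a minimum count of 50, and it ranged from -0.055 to 0.035 with each library left out. CDKN2D at 6 h ranged from -0.123 to 0.062 with each library left out.

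Same-numbered libraries did not deviate together over all tested genes (correlations of -0.059 to 0.021 over 9 pairs). Whether they shared a culture day or batch is not stated, and such correlations cannot decide it. With the replicate block 5149, 8133 and 9393 of all genes and 7, 9 and 8 of the G1 genes were called in the 3 comparisons; CDKN1B at 24 h then passed (-0.111, adjusted p = 0.0472).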
